A study of Mus musculus with 6 samples.

Results

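Of the 57177 autosomal regions that the authors compared for H3K9me3, 473 were wider than 400 bp, and these wide regions are described here. The other 56704 autosomal regions were all exactly 400 bp long. A region counted as wide when its end minus its start plus 1 was above 400 on chromosomes 1 to 19, so no read count took part in the choice. A further 9 wide regions, all on X, were left out. The study asked whether the mark differs in endothelial progenitor cells (EPCs) by sex and by loss of the ovaries. The cells were Sca-1+/CD31+ bone marrow cells of C57BL/6J mice aged 8 weeks, sorted with magnetic beads and cultured in EGM-2 medium. They came from males (M-EPC), from females (F-EPC) and from females ovariectomized at about 35 days of age (OVX-EPC), with 2 CUT&Tag libraries in each group. The labels name no drug or genetic change, and the ovariectomized group has no sham-operated control among these libraries. Vials had been frozen in duplicate, and the sources do not say whether the 2 libraries of a group came from separate mice or cultures, so p-values measure the spread between libraries, which may be technical.

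H3K9me3 is histone H3 trimethylated at lysine 9. The mark is written by enzymes such as the SUV39H proteins and SETDB1, is bound by HP1 proteins, and is known for silenced chromatin at repeats, at retroviral elements, at imprinted loci and at gene families such as the KRAB zinc finger and olfactory receptor genes. In CUT&Tag an antibody brings the Tn5 transposase to the mark, and the cut DNA is sequenced. Tn5 can also cut open chromatin such as active promoters. The assay measures no RNA, so the identity of the cells could not be checked from marker expression.

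The files held whole reads divided by a factor for each library, and those reads were recovered. The 6 libraries held 288353 to 573821 reads in all regions. F-EPC replicate 1 had no reads after the region ending at base 30557137 of chromosome 16, and replicate 2 had none after a point on chromosome 3, in a table ordered by chromosome name as text. F-EPC values are therefore used only for chromosomes 1 and 10 to 15 and for chromosome 16 up to that base, where 223 of the 473 wide regions lie. In this stretch the libraries held 200296 to 288353 reads. M-EPC replicate 1 stood apart from the other libraries, with the largest share of its reads in promoters and at CpG-rich sequence. Among 400-bp regions, M-EPC replicate 2 leaned the same way by less. The values of replicate 1 are given beside the results that it touches.

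The central 300 bases are printed for the 4 wide regions that differed between F-EPC and M-EPC and for the widest promoter region, so that the kinds of sequence under these regions can be seen. They are read from GRCm38 (mm10), plus strand, 5′ to 3′, with each CG dinucleotide, the site of DNA methylation in mammals, in capitals. The Unc5a window overlaps coding exons and has the most CG of the windows printed. The Gm7765 region has almost none.
Unc5a, chr13:55003367-55003666: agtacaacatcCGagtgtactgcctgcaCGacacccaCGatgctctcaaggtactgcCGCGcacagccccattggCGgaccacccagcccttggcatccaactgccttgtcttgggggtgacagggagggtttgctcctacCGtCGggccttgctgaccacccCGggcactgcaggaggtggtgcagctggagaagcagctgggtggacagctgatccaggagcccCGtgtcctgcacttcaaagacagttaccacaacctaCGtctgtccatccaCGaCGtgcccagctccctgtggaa
Card19, chr13:49221046-49221345: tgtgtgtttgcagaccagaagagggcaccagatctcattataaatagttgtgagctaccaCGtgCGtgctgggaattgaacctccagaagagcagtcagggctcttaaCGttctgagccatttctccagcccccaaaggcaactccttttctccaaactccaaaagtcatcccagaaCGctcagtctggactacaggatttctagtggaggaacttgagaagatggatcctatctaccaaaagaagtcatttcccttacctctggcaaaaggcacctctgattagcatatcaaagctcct
Tbc1d8, chr1:39397506-39397805: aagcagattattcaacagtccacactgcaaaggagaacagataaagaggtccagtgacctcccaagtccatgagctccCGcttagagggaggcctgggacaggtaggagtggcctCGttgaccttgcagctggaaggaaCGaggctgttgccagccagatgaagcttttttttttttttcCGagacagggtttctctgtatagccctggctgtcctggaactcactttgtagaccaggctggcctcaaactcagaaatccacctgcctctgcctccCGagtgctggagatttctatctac
Gm7765, chr16:16410067-16410366: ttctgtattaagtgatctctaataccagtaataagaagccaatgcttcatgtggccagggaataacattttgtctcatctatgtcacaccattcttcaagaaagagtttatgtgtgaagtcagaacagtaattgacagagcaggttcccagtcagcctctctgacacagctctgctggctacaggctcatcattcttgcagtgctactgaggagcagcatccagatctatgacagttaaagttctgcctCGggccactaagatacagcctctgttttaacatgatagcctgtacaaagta
Gm6677, chr3:78007241-78007540: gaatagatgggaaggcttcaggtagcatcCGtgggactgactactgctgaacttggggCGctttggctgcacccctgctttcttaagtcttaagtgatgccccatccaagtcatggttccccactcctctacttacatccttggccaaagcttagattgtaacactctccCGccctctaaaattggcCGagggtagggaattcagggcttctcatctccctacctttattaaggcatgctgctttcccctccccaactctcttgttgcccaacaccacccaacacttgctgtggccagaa

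The Unc5a window overlapped coding exons of Unc5a in GENCODE M21. The Tbc1d8 window lay in an intron of Tbc1d8, and the other 3 windows overlapped no annotated gene. The windows held 13 (Unc5a), 4 (Card19), 5 (Tbc1d8), 1 (Gm7765) and 4 (Gm6677) CG dinucleotides. The letters CG, which read the same on both strands, were present at least once in the central 300 bases of 89.6% of wide and 87.3% of 400-bp regions, with a median of 3 in both. Windows with 13 or more made up 13.7% of wide and 12.1% of 400-bp regions.

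The wide regions ranged from 439 to 917 bp and had a median width of 698 bp, with quartiles of 627 and 749 bp. Together they spanned 324 kb. The number of regions increased with width up to 800 bp and then ended abruptly, since 229 regions were wider than 700 bp and up to 800 bp, and only 2 were wider. How the authors arrived at these widths is not given in the sources used here. There was a gap between the classes, because 0 autosomal regions measured 401 to 438 bp.

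**Figure D1:**
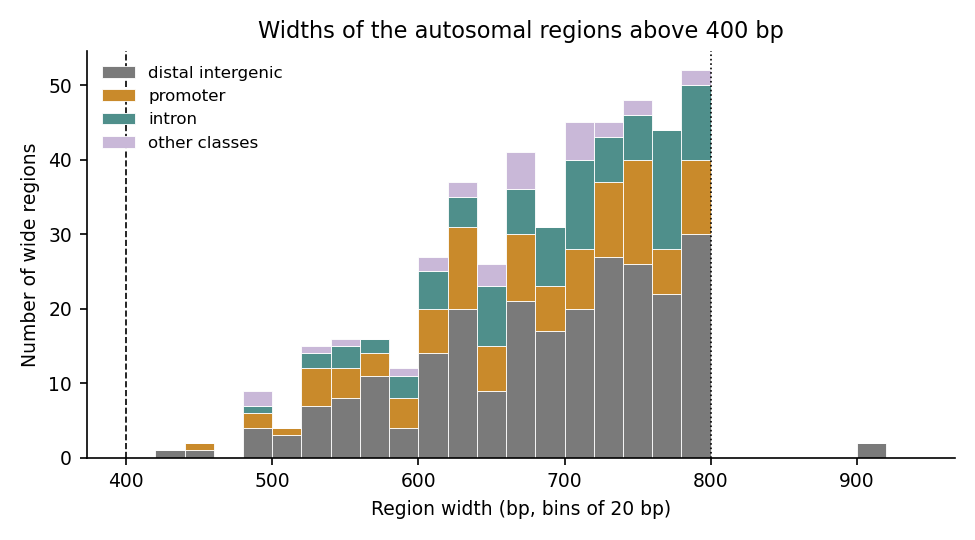
Number of autosomal wide regions (y axis) by width in bins of 20 bp (x axis), stacked by the authors' annotation class. The dashed line marks 400 bp and the dotted line 800 bp. Counts rise towards 800 bp and only 2 regions lie beyond it.

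The regions just inside the width limit were chr1:8188899-8189337, nearest to Gm38024, at 439 bp, the promoter region chr7:67645117-67645560 of Lrrc28, a leucine-rich repeat gene, at 444 bp, and chr12:107718887-107719334 near 4930465M20Rik at 448 bp. The Gm38024 region held 3 and 14 reads in the M-EPC replicates, 13 and 13 in those of F-EPC and 15 and 12 in those of OVX-EPC. The 4930465M20Rik region held 9 and 26 reads in the M-EPC replicates, 10 and 21 in those of F-EPC and 16 and 14 in those of OVX-EPC. M-EPC replicate 1 had the fewest reads in both regions, without correction for its lower depth. In the normalized values of F-EPC and M-EPC it was lowest at Gm38024 (3.75), but at 4930465M20Rik F-EPC replicate 1 was lower (7.98 against 11.3). The Lrrc28 region held 8 and 14 reads in the M-EPC replicates and 13 and 14 in those of OVX-EPC.

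At the other end, the 917-bp region chr2:122651645-122652561, between genes and nearest to the microRNA gene Mir147, held 11 and 12 reads in the M-EPC replicates and 12 and 12 in those of OVX-EPC, or 12 to 13.1 reads per kb. The 907-bp region chr16:71214997-71215903 near Gm24968 overlaps an exon of Gm49666 in GENCODE M21. It held 10 and 10 reads in the M-EPC replicates and 22 and 12 in those of OVX-EPC. Neither difference of OVX-EPC from M-EPC passed the threshold, with log2 fold changes of 0.05 (SE 0.398, adjusted p = 0.97, limma) and 0.64 (SE 0.399, adjusted p = 0.415). The next widest, at 799 bp each, lay in an intron of Iffo2, at the promoter of Gm6677 and near Gm26140. The region in Iffo2, an intermediate filament family gene, held 10 and 3 reads in the M-EPC replicates and 8 and 10 in those of OVX-EPC. The Gm26140 region, chr12:23189037-23189835, is distal intergenic in the authors' annotation. In GENCODE M21 it holds a transcript start and overlaps an exon of Gm47385. It was weak in every library, at 5 and 5 reads in the M-EPC replicates, 7 and 6 in those of F-EPC and 4 and 8 in those of OVX-EPC.

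The wide regions lay in much the same places as the 400-bp regions. Distal intergenic sequence held 247 of 473 (52.2%, against 54.2% of 400-bp regions), promoters within 3 kb of a start site held 106 (22.4%, against 20.6%) and introns held 92 (19.5%, against 21.4%). Exons held 23 wide regions, or 4.86% against 2.27%. A GENCODE M21 transcript start lay inside 64 wide regions (13.5%, against 10.2%). These shares are not corrected for the greater width. Median GC content was 48.9% in wide and 48.5% in 400-bp regions, and CG dinucleotides numbered 10.3 and 10.0 per kb. The repeat-masked share was 22.4% and 20.8% at the median. The median distance to the nearest transcript start was 13900 and 13200 bp. A region was called CpG-island-like when its GC content was above 50% and its observed over expected CG ratio above 0.6. This held for 60 wide regions (12.7%, against 10.5%), and 55 of these 60 were promoter regions. All 19 autosomes had wide regions, with shares from 0.543% of the regions on chromosome 18 to 1.19% on chromosome 4.

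The genes assigned to the wide regions were diverse. A region said to be near or nearest to a gene carries that gene in the authors' annotation, and the gene can be far away. The nearest transcript start of any gene was 126292 bp from the Gm25602 region, 64188 bp from the Zfp804a region and 264154 bp from the Gm38024 region. There were 456 gene names, 12 of which had 2 wide regions each, and 0 had 3 or more. Predicted genes with names starting in Gm made up 37.0% of the wide regions and 38.4% of the 400-bp regions. None (0) of the genes that the study examined (Ccl3, Angpt1, Kdr, Nos3, Tek and Vegfa), of the EPC identity genes or of the enzymes and binders of H3K9 methylation had a wide region. These lists had 20, 63 and 41 regions of 400 bp. The developmental transcription factor families searched, such as Hox and Sox, likewise had 0 wide regions and 248 of 400 bp. The marker genes of endothelial progenitors and of other marrow cells had 0 wide regions, and 26 and 4 regions of 400 bp. With 473 wide regions among 57177, lists of this size would hold few wide regions at the overall share of 0.827%, so these zeros say little about the genes.

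Read density in the wide regions was moderate. In the stretch with F-EPC reads, a wide region held a median of 9 and 10 reads in the M-EPC replicates, 12 and 10 in those of F-EPC and 10 and 9 in those of OVX-EPC. Per kb, the medians were 12.5 and 14.8 for M-EPC, 16.9 and 16.1 for F-EPC and 14.2 and 13.2 for OVX-EPC. The 400-bp regions had medians of 12.5 and 15, 20 and 17.5, and 15 and 15 reads per kb in the same libraries. The medians were thus close, and the classes differed at the top. The 95th percentile of reads per kb was 28.4 to 37.4 in wide regions and 45 to 65 in 400-bp regions, without overlap between the 6 libraries of each. Mean density in CPM per kb, where CPM is a count scaled to the region reads of its library, was 66.0 to 71.0 per kb in wide regions and 92.4 in 400-bp regions in all 6 libraries. The 400-bp regions hold nearly all region reads, so this scaling almost fixes their mean in advance. The mean of the wide regions largely follows from their share of reads, given below. Regions without any read numbered 0 to 3 of 223 in a library.

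**Figure D2:**
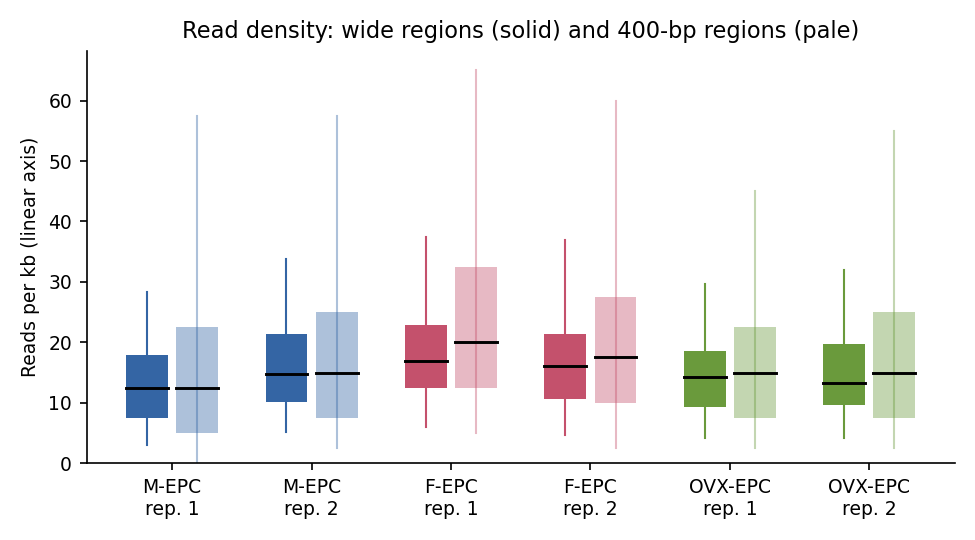
Reads per kb (y axis, linear) in each of the 6 libraries (x axis), for the 223 wide regions (solid, left) and 26776 regions of 400 bp (pale, right) in the stretch with F-EPC reads. Boxes span the quartiles, black lines mark medians and whiskers run from the 5th to the 95th percentile. Medians are close, and the upper whiskers of the wide regions stop at 28.4 to 37.4.

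Over all autosomes, the mean of the 4 M-EPC and OVX-EPC libraries ran from 4.07 to 80.0 reads per kb among wide regions, with a median of 15. Among 400-bp regions the median was 16.2, the 99th percentile was 120.0 (40.8 in wide regions) and 1443 regions (2.54%) exceeded the densest wide region. Within the wide regions, density fell with width, from a median of 18.4 reads per kb in the 12 regions up to 500 bp to 14.3 in the 229 regions above 700 and up to 800 bp. The median number of reads per region was 9.12 in the first of these width classes and 10.8 in the second.

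The densest wide region was chr10:79070108-79070863, in intron 4 of 2610008E11Rik, a gene of unassigned function here. It held 68 and 61 reads in the M-EPC replicates, 61 and 54 in those of F-EPC and 47 and 66 in those of OVX-EPC, or 62.2 to 89.9 reads per kb. In normalized values F-EPC (48.7 and 49.8) lay below M-EPC (85 and 61.8) without overlap, but the difference did not pass the threshold (log2 fold change −0.55, SE 0.232, adjusted p = 0.173, limma). It had no repeat-masked base. The fifth densest, chr14:13753534-13754317 near Gm27506, was 98.3% repeat-masked and held 31 and 33 reads in the M-EPC replicates, 48 and 30 in those of F-EPC and 25 and 42 in those of OVX-EPC. The others were chr6:149283240-149283875 near Resf1, chr7:123051550-123052289 near Rbbp6, which encodes a ubiquitin ligase that binds the retinoblastoma protein, and the Gm7765 region described below. The Rbbp6 region held 30 and 43 reads in the M-EPC replicates and 27 and 29 in those of OVX-EPC, with a log2 fold change of −0.36 (SE 0.281).

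Resf1, which encodes a protein that helps to silence retroviral elements together with SETDB1, was one of the 12 genes with 2 wide regions. Its second region was picked out after its values had been seen. The first, 636 bp wide, overlaps an exon of Gm10388 in GENCODE M21. It held 37 and 35 reads in the M-EPC replicates and 23 and 34 in those of OVX-EPC. The second, chr6:149294579-149295200, held 33 and 28 reads in the M-EPC replicates and 15 and 22 in those of OVX-EPC. All 4 libraries of the second region thus exceeded the median wide region. Both OVX-EPC libraries were below both M-EPC libraries there, but the difference did not pass the threshold (log2 fold change −0.72, SE 0.316, adjusted p = 0.267, limma).

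Comparing F-EPC with M-EPC addressed the effect of sex. Of the 223 wide regions available, 139 (62.3%) passed the filter of a value of at least 10 in at least 2 of the 4 libraries. Of these, 4 were lower in F-EPC and 0 were higher at a Benjamini-Hochberg adjusted p under 0.05 (limma, adjusted over all regions tested). Among all 8139 regions tested, 1.62% were lower and 0.172% were higher, so the share of wide regions called lower (2.88%) rests on 4 regions and stands near that background. At an unadjusted p under 0.05 there were 30 wide regions (21.6%), against 22.8% of all regions. The median log2 fold change of wide regions was −0.08, against −0.19 for all regions tested, and 80 of 139 were below 0. With TMM scaling these medians became 0.04 and −0.06, so the sign of the wide median depends on the scaling.

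The region assigned to Unc5a, a netrin receptor that guides axons and can signal cell death, showed the lowest p-value. This 628-bp region, chr13:55003203-55003830, is a promoter region in the authors' annotation and holds a GENCODE M21 transcript start. It overlaps coding exons of Unc5a and no annotated untranslated region, so it lies within the gene body. Whether it acts as a promoter was not tested. It held 36 and 33 reads in the M-EPC replicates, 8 and 8 in those of F-EPC and 10 and 3 in those of OVX-EPC, or 57.3 and 52.5, 12.7 and 12.7, and 15.9 and 4.78 reads per kb. Every library from females, with or without ovaries, was below both libraries from males. In the authors' normalized values the mean was 39.2 ± 8.18 for M-EPC but 6.88 ± 0.701 for F-EPC (SD, n = 2). The log2 fold change was −2.34 (SE 0.348, adjusted p = 0.000806, limma).

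The second region, chr13:49220866-49221525, lies between genes, 4829 bp from a transcript start, and is assigned to Card19, a gene for a protein with a caspase recruitment domain. It held 26 and 17 reads in the M-EPC replicates, 8 and 7 in those of F-EPC and 13 and 6 in those of OVX-EPC. Both F-EPC libraries were below both M-EPC libraries (log2 fold change −1.74, SE 0.394, adjusted p = 0.0259). M-EPC replicate 1 was the higher of the 2 M-EPC libraries, at 39.4 against 25.8 reads per kb.

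In intron 5 of Tbc1d8, a gene of a family that regulates Rab GTPases in membrane traffic, the 704-bp region chr1:39397304-39398007 held 15 and 18 reads in the M-EPC replicates and 3 and 7 in those of F-EPC. In OVX-EPC it held 12 and 14 reads, between the other groups in reads per kb. F-EPC was lower than M-EPC (log2 fold change −1.95, SE 0.485, adjusted p = 0.0376). The difference of OVX-EPC from F-EPC was 1.59 (SE 0.657) and did not pass the threshold (adjusted p = 0.768).

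The intergenic region chr16:16409900-16410533, nearest to the predicted gene Gm7765, held 33 and 31 reads in the M-EPC replicates, 21 and 13 in those of F-EPC and 27 and 16 in those of OVX-EPC. It was strong in every library, at 20.5 to 52.1 reads per kb. F-EPC was lower than M-EPC (log2 fold change −1.29, SE 0.321, adjusted p = 0.0383).

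The Unc5a, Card19 and Tbc1d8 regions passed the filter through the 2 M-EPC libraries alone, so they were tested only because their M-EPC values were high. Without the filter all 4 regions stayed under the threshold, with adjusted p-values of 9.81e-08 to 0.0117 (limma). That refit used the same libraries and regions already picked, so it adds no independent support. Summed over both libraries, the Unc5a region held 69 reads in M-EPC (95% exact Poisson interval 53.7 to 87.3) and 16 in F-EPC (9.15 to 26.0). The Tbc1d8 region held 33 (22.7 to 46.3) and 10 (4.8 to 18.4). These intervals cover counting error only. DESeq2 on the recovered reads called 0 wide regions in this comparison (Unc5a adjusted p = 0.0853), edgeR called 3, and the TMM scaling and the values per kb left only Unc5a. Without M-EPC replicate 1 there were 0 calls; Unc5a, Card19 and Tbc1d8 then no longer passed the filter, and Gm7765 had an adjusted p of 0.255.

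**Figure D3:**
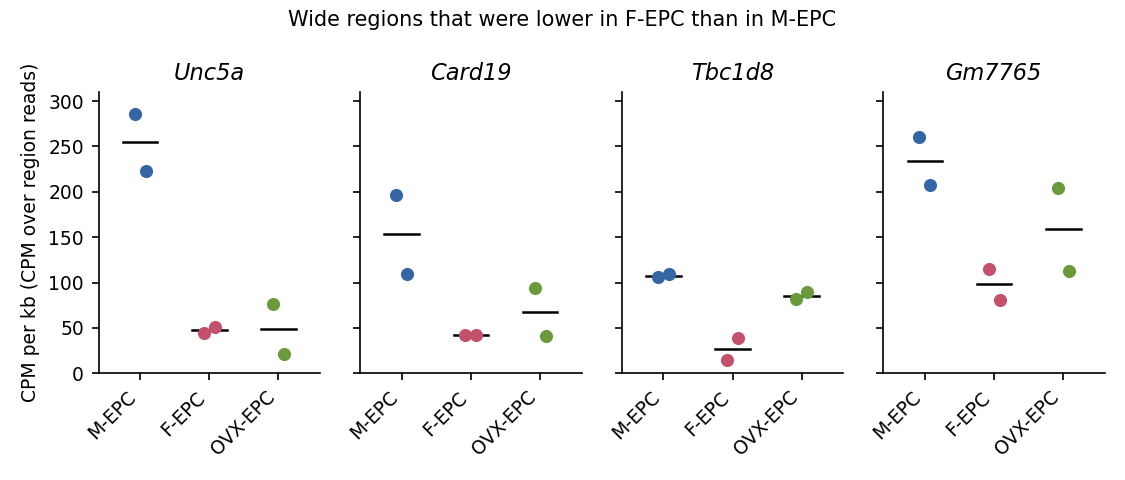
CPM per kb, that is reads per kb scaled to the region reads of the library (y axis), of the 4 wide regions lower in F-EPC than in M-EPC, with 1 point for each library and a line at each group mean (n = 2). F-EPC points lie below both M-EPC points in every panel, and the regions were picked by that difference. At Unc5a both OVX-EPC points (76.2 and 21.4) are also below M-EPC (286 and 223).

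No wide region with a higher value in F-EPC passed the threshold, and the 3 nearest to it follow. The intergenic region chr1:35235004-35235701 near Gm25096 held 11 and 8 reads in the M-EPC replicates and 34 and 21 in those of F-EPC (log2 fold change 1.05, SE 0.368, adjusted p = 0.116). The promoter region of Gm11754, chr11:119110254-119111025, held 5 and 9 reads in the M-EPC replicates and 23 and 17 in those of F-EPC (adjusted p = 0.132). The region near Gm25602, chr10:54930133-54930901, held 3 and 5 reads in the M-EPC replicates, 16 and 14 in those of F-EPC and 4 and 5 in those of OVX-EPC (adjusted p = 0.145). In each of the 3 the F-EPC values lay above the M-EPC values without overlap. These regions were picked by p-value, so this adds no support.

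Comparing OVX-EPC with M-EPC addressed the difference from males when the ovaries had been removed. It used wide regions of all autosomes, and 286 of 473 wide regions (60.5%) were tested. Only the Unc5a region was called lower and 0 were called higher, against 0.402% lower and 0.0473% higher among all 16931 regions tested and adjusted together. These include 315 regions on X and Y; among the 16616 autosomal regions, 0.403% were lower and 0.00% higher. The Unc5a mean was 34.3 ± 6.27 for M-EPC but 6.48 ± 5.15 for OVX-EPC (SD, n = 2, on the scale of this table). The log2 fold change was −2.42 (SE 0.415, adjusted p = 0.00197, limma). The comparison uses the same M-EPC libraries as that with F-EPC, so the results are not independent. The OVX-EPC libraries differed from each other here, at 10 and 3 reads, and without replicate 2 the adjusted p was 0.149. It was 0.574 without M-EPC replicate 1 and 0.257 without M-EPC replicate 2.

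No other wide region was called between OVX-EPC and M-EPC at this depth. An unadjusted p under 0.05 was found for 38 (13.3%), against 16.1% of all and 15.5% of autosomal regions, with 21 higher and 17 lower. The median log2 fold change was −0.01, with 142 regions above 0 and 144 below. All regions tested had a median of −0.16, and the autosomal ones −0.17. With TMM scaling these became 0.16 and 0.00, and the wide regions stayed 0.16 above all regions.

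**Figure D4:**
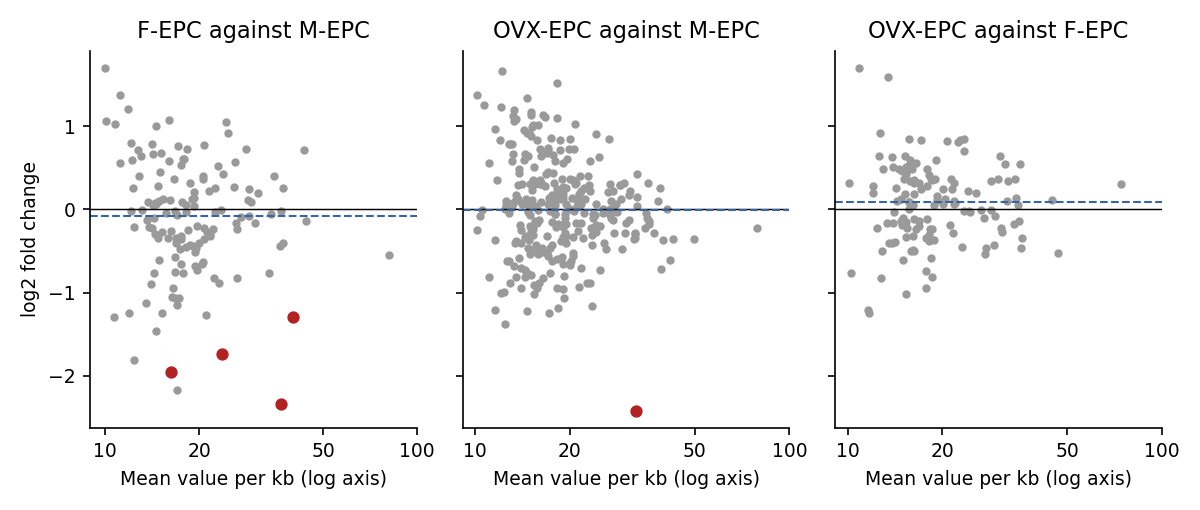
Log2 fold change (y axis) against the mean normalized value per kb (x axis, log scale) of every wide region tested in the 3 comparisons. Red points passed an adjusted p under 0.05 (4, 1 and 0 regions), and the dashed line is the median of the wide regions (−0.08, −0.01 and 0.09).

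Among the regions with the smallest p-values that did not pass, chr3:120325676-120326345 near Gm23733 held 5 and 7 reads in the M-EPC replicates and 19 and 19 in those of OVX-EPC (log2 fold change 1.52, SE 0.421, adjusted p = 0.112). It was 74.3% repeat-masked. The region chr2:81988269-81989034, near the zinc finger gene Zfp804a and 93.1% repeat-masked, held 4 and 4 reads in the M-EPC replicates and 14 and 16 in those of OVX-EPC (adjusted p = 0.167). Near Clec10a, which encodes a C-type lectin of macrophages, chr11:70189152-70189931 held 6 and 8 reads in the M-EPC replicates, 15 and 18 in those of F-EPC and 18 and 16 in those of OVX-EPC (adjusted p = 0.199). In the other direction, chr5:32713785-32714519 near Gm2420 held 18 and 20 reads in the M-EPC replicates and 5 and 12 in those of OVX-EPC (adjusted p = 0.185). It overlaps an exon of Gm43852 in GENCODE M21. The Card19 region had a log2 fold change of −1.16 (SE 0.408, adjusted p = 0.191). Groups did not overlap in any of these 5 regions, but they were picked by p-value, so this adds no support.

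Comparing OVX-EPC with F-EPC addressed the effect of the surgery within females. Of 133 wide regions tested, 0 differed by limma, DESeq2 or edgeR, against 0.00% higher and 0.0127% lower among all 7897 regions. At an unadjusted p under 0.05 there were 9 (6.77%), against 6.22% of all regions. The median log2 fold change was 0.09, against 0.03. The lowest p-value belonged to an exon of the noncoding gene Gm15834, chr1:58515504-58516244, with 17 and 11 reads in the F-EPC replicates and 17 and 24 in those of OVX-EPC (log2 fold change 0.85, SE 0.347, adjusted p = 0.768). The promoter region of Sptlc2, a subunit of the enzyme that starts sphingolipid synthesis, held 11 and 17 reads in the F-EPC replicates and 18 and 22 in those of OVX-EPC (0.83, SE 0.353). The promoter region of Nxph4, a neurexophilin gene, held 25 and 19 reads in the F-EPC replicates and 8 and 11 in those of OVX-EPC (−0.81, SE 0.362, adjusted p = 0.769). The region near Gm18505 held 20 and 14 reads in the F-EPC replicates and 4 and 9 in those of OVX-EPC. The promoter region of Actr8, a subunit of the INO80 chromatin remodeller, held 22 and 13 reads in the F-EPC replicates and 6 and 7 in those of OVX-EPC (−0.95, SE 0.439).

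Promoter and intergenic wide regions lay apart in both comparisons with M-EPC. In F-EPC against M-EPC, 27 of 38 wide promoter regions were below 0 (median −0.32), against 36 of 78 wide distal intergenic regions (median 0.07). In OVX-EPC against M-EPC the medians were −0.19 over 74 promoter regions and 0.12 over 144 intergenic regions. The 400-bp regions had medians of −0.40 and −0.01 in the first comparison and −0.28 and −0.05 in the second, a gap in the same direction. Only the Unc5a region, which overlaps coding exons, passed the test among the wide regions annotated as promoter, in both comparisons. Among 400-bp promoter regions, 46 of 2387 passed in the first comparison and 18 of 5619 in the second. M-EPC replicate 1 had 28.6% of its wide-region reads in promoters (95% Wilson interval 26.7 to 30.6), and the other 5 libraries had 22.2% to 24.1%. The highest of those 5 was M-EPC replicate 2. Among 400-bp regions of the same stretch, promoters held 30.7% and 27.1% of the reads in the M-EPC replicates. The shares were 23.4% and 25.3% for F-EPC and 25.8% and 25.4% for OVX-EPC. The part of M-EPC replicate 1 in the gap was not tested.

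The 29 CpG-island-like wide regions in the stretch with F-EPC reads had a mean of 89.9 CPM per kb in M-EPC replicate 1, 74.0 in M-EPC replicate 2, 59.6 and 71.4 in those of F-EPC, and 74.0 and 64.5 in those of OVX-EPC. Wide regions outside this class had 66.7 and 70.5, 67.0 and 68.9, and 70.6 and 70.1. CpG-island-like wide regions thus exceeded the other wide regions in 4 of 6 libraries, by the most in M-EPC replicate 1. Among 400-bp regions the CpG-island-like ones had 126 to 193 CPM per kb and the others 82.7 to 89.1. Of the CpG-island-like wide regions tested, 18 of 20 were below 0 in F-EPC against M-EPC (median −0.38, against −0.44 for 1534 such regions of 400 bp). The test was passed by 0 of the 20 and by 15 of the 1534, so the 0 says little.

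**Figure D5:**
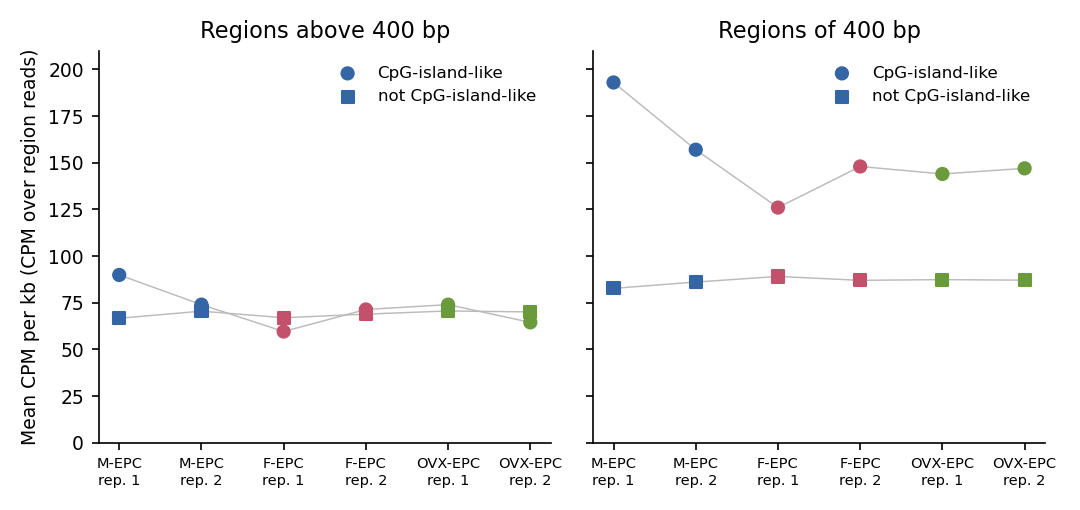
Mean CPM per kb (y axis, from 0) in each library (x axis), for CpG-island-like (circles) and other (squares) regions above 400 bp (left) and of 400 bp (right). Colours mark the groups. At 400 bp the circles (126 to 193) stand above the squares in every library; above 400 bp they range from 59.6 to 89.9 and cross the squares.

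Among the widest promoter regions, that of Gm6677 (chr3:78006991-78007789, 799 bp) held 14 and 14 reads in the M-EPC replicates and 12 and 22 in those of OVX-EPC. That of Gm17847 (chr1:108997666-108998463, 798 bp) held 13 and 19 reads in the M-EPC replicates, 22 and 14 in those of F-EPC and 12 and 19 in those of OVX-EPC. That of Gm24681 (chr16:68451884-68452681, 798 bp) held 10 and 23 reads in the M-EPC replicates and 16 and 18 in those of OVX-EPC. In all 3 the groups overlapped. The region of Pcdhb11, a clustered protocadherin gene of neuronal cell adhesion, was 796 bp wide and held 3 and 7 reads in the M-EPC replicates and 12 and 13 in those of OVX-EPC (log2 fold change 1.25, SE 0.566, adjusted p = 0.283, limma). The fifth was the Nxph4 region given above, 794 bp wide.

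Among gene groups known to carry H3K9me3, the imprinted genes had 3 wide regions (0.634% of wide regions, against 0.146% of 400-bp regions). This share rests on 3 regions only. Near Meg3, the maternally expressed noncoding RNA gene of the imprinted cluster on chromosome 12, the promoter region chr12:109540119-109540900 held 14 and 15 reads in the M-EPC replicates, 36 and 29 in those of F-EPC and 20 and 25 in those of OVX-EPC. These reads are not corrected for depth, and the F-EPC libraries were the deepest in the stretch with F-EPC reads. In normalized values F-EPC had 28.7 and 26.7 against 17.5 and 15.2 for M-EPC. On the scale of the other table, OVX-EPC had 22.7 and 26.9 against 29.3 and 27.1 for F-EPC. No difference passed the threshold by limma. The log2 fold change was 0.73 for F-EPC against M-EPC (SE 0.318, adjusted p = 0.183) and 0.58 for OVX-EPC against M-EPC (SE 0.334, adjusted p = 0.38). Near Mirg, a microRNA host gene of the same cluster, chr12:109803187-109803822 held 6 and 7 reads in the M-EPC replicates, 8 and 8 in those of F-EPC and 7 and 12 in those of OVX-EPC. The promoter region chr2:174300101-174300728 of Gnas, an imprinted gene for a G protein subunit, held 26 and 19 reads in the M-EPC replicates and 23 and 13 in those of OVX-EPC.

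Olfactory receptor genes had 10 wide regions (2.11% of wide regions, against 1.26% of 400-bp regions). In OVX-EPC against M-EPC, 5 were tested and 0 passed, with a median log2 fold change of 0.84 (0.40 for 123 regions of 400 bp in this family). The Olfr1350 region held 7 and 6 reads in the M-EPC replicates and 15 and 16 in those of OVX-EPC (adjusted p = 0.231), while that of Olfr290 held 14 and 21 against 16 and 19. The vomeronasal receptor gene Vmn1r41 had the 1 wide region of its family (0.211%, against 0.377%). This region held 2 and 9 reads in the M-EPC replicates and 11 and 15 in those of OVX-EPC (adjusted p = 0.275, limma). Zinc finger genes named Zfp had 8 wide regions (1.69%, against 1.61%). The densest was near Zfp128, with 35 and 30 reads in the M-EPC replicates and 25 and 28 in those of OVX-EPC. Of 5 tested in OVX-EPC against M-EPC 0 passed, with a median of 0.12. Ribosomal protein genes had 1 wide region (0.211%, against 0.922%), near Rps3a2, at 2 to 9 reads per library.

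The wide regions held a small and steady share of the reads. In the stretch with F-EPC reads their share of region reads was 1.06% and 1.07% for M-EPC, 1.01% and 1.05% for F-EPC and 1.07% and 1.06% for OVX-EPC, and the 95% Wilson intervals lay within 0.975% to 1.12%. The group means differed by −0.0323 percentage points between F-EPC and M-EPC (spread between replicates 0.0228) and by 0.0338 between OVX-EPC and F-EPC (spread 0.0231). The first difference was −0.0101 without F-EPC replicate 1 and −0.0544 without F-EPC replicate 2, and the second was 0.0117 and 0.056 without the same libraries. Over all autosomes the shares were 0.966% and 1.03% for M-EPC and 1.06% and 1.03% for OVX-EPC, a difference of 0.0487 points (spread 0.0362). M-EPC replicate 1 was the lowest here. The difference was 0.0151 without it and 0.0822 without M-EPC replicate 2.

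The root mean square difference of log2 CPM between the 2 libraries of a group was 0.879 (M-EPC), 0.699 (F-EPC) and 1.04 (OVX-EPC) over 138 to 166 wide regions with at least 10 reads in a library, against 0.993, 0.925 and 0.957 over 400-bp regions. The median SE of a log2 fold change in the wide regions was 0.40 to 0.41. Most 2-fold differences could not be detected at this depth: in data simulated on F-EPC against M-EPC, with 7805 regions tested, 8.45% of 2-fold and 66.2% of 4-fold changes were recovered. For OVX-EPC against M-EPC, with 17190 regions tested, the shares were 2.53% and 42.1%, and for OVX-EPC against F-EPC, with 8133 regions, 4.11% and 53.7%. The simulation gave every region the same dispersion, was not limited to wide regions and counted only changed regions that passed the filter. Its spread was not matched to these libraries, so the shares may be too high.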

How the data were processed

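H3K9me3 CUT&Tag was measured in 6 libraries, 2 per group, grouped by their labels. The study's methods say that the authors trimmed reads, aligned them to mm10 with Bowtie2, removed duplicates with Picard, removed reads of mapping quality under 10, called peaks with MACS and annotated regions with HOMER and ChIPseeker. The submitters' processing notes name BWA and MACS2 instead. Discarding poorly mapped reads lowers the signal in repeats. The authors deposited a table for every pairing of groups (3 in all) that gives normalized signal by region. A deposited signal value came out as whole reads after multiplication by a factor of its library (100% of values within a tolerance of 1e-06), and these read counts were recovered. The tables also hold the authors' mean, log2 fold change, p-value and adjusted p-value, which were not used.

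Wide regions are the autosomal regions in the union of the tables (58511 regions) above 400 bp. The members and gene lists were chosen with earlier results of these data known. Each comparison was fitted with limma 3.58.1 (R 4.3.3), allowing the variance to follow the mean, to log2(value + 1) in the 4 libraries of a table, over all regions with a value of at least 10 in at least 2 libraries, and p-values were adjusted by Benjamini-Hochberg over all regions tested. Fold changes on this scale understate changes of weak regions. Comparisons with F-EPC used regions up to the first F-EPC stop. Shares and medians have no test; the spread between replicates is the standard error of the difference of group means. The fit was tested on simulated data. DESeq2 1.42.0 and edgeR 4.0.16 on recovered reads, other scalings, pseudocounts of 0.1 and 5, filters, values per kb, a width above 500 bp, a replicate block and leaving out each library were alternatives. Regions named were, in each comparison, up to 5 differing regions in each direction (3 by p-value where fewer differed), the 5 widest, the 5 densest, the 5 widest in promoters, the 3 narrowest and those of listed genes. Sequence features came from the GRCm38.p6 genome, whose coordinates are those of mm10, and GENCODE M21. Replicates with the same number did not deviate together (correlations of −0.0522 to −0.0179).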

Additional observations from a re-analysis of the deposited data

Results flagged for a closer look

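Reads outside the comparisons were looked at separately. F-EPC replicate 2 held 1505 reads in the 122 wide regions between the stops of the 2 F-EPC libraries, with a median of 17.2 reads per kb and 0 regions without a read. In the 223 wide regions up to the first stop its median was 16.1. In the 128 wide regions after both stops it had no read.

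The 9 wide regions outside the autosomes, all on X, held a mean of 63.5 reads in an M-EPC library and 116 in an OVX-EPC library. The region near Gm22225 held 3 and 12 reads in the M-EPC replicates and 21 and 14 in those of OVX-EPC, and the promoter region of Pdha1, a subunit of pyruvate dehydrogenase, held 9 and 4 against 17 and 11. Males carry fewer X chromosomes than females, and these reads are not corrected for that. The 315 regions on X and Y tested in OVX-EPC against M-EPC had a median log2 fold change of 0.84, against −0.17 on autosomes. No test is reported for the 9 regions, and the part of X copy number was not tested. Groups of 2 libraries are too small to look for outlying samples.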

How the results depend on the processing

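Depth limits single regions, at about 10 reads per wide region and library. No region named in a comparison changed direction under the alternatives in which it was tested. These regions were picked by p-value, so a stable direction adds little support. For F-EPC against M-EPC the number of wide regions differing was 4; it was 1 with TMM factors, 1 with values per kb, 2 with the filter at 30 and 0 with DESeq2, and 0 to 3 with 1 library left out. Without M-EPC replicate 1 it was 0, without F-EPC replicate 1 it was 1 and without F-EPC replicate 2 it was 2. Without M-EPC replicate 2 it was 3, of which 2 (Gm19214 and Gm27682) were higher in F-EPC and 1 (Gm7765) lower. Leaving out an M-EPC library removed Unc5a, Card19 and Tbc1d8 from the test through the filter. For OVX-EPC against M-EPC the number was 1; it was 0 with the filter at 30, where Unc5a was not tested, 0 with DESeq2, 2 with edgeR (1 higher, near Gm23733, adjusted p = 0.0438) and 0 to 1 with 1 library left out. It was 0 without M-EPC replicate 1, M-EPC replicate 2 or OVX-EPC replicate 2. For OVX-EPC against F-EPC it was 0 under every alternative.

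The median log2 fold change of wide regions in F-EPC against M-EPC (−0.08) was 0.04 with TMM factors, −0.00 with library totals, −0.35 over the 6 regions left by the filter at 30, and −0.18 to −0.02 with 1 library left out. In OVX-EPC against M-EPC (−0.01) it was 0.16 with TMM factors, 0.05 with library totals, 0.04 without a filter, −0.22 with the filter at 30 and −0.02 to 0.03 with 1 library left out. In OVX-EPC against F-EPC (0.09) it was −0.11 with the filter at 30 and −0.07 to 0.14 with 1 library left out. With promoter regions left out, the difference in the share of reads was −0.0624 points for F-EPC against M-EPC and 0.0672 points for OVX-EPC against F-EPC. Counting all regions, 146 differed between F-EPC and M-EPC, 90.4% of them lower, and 29 with TMM factors, 82.8% of them lower. Between OVX-EPC and M-EPC 76 differed, 89.5% of them lower, and 41 with TMM factors, 75.6% of them lower. The causes of these shifts were not tested beyond what is stated. With the replicate block the numbers of wide regions differing were 4, 1 and 0, and it changed no call. The replicate numbers in the labels do not mark pairs.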
